A study of Mus musculus with 8 samples.

Results

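The enzymes of heme biosynthesis were examined one by one in H3K9ac ChIP-seq data of murine bone marrow (BM) cells. The 8 genes were *Alas1*, *Alas2*, *Alad*, *Uros*, *Urod*, *Cpox*, *Ppox* and *Fech*, out of 21938 protein-coding genes of the annotation, and they were chosen for the enzymes they encode and not for any measured value. The gene that encodes the enzyme between *Alad* and *Uros* was not analysed here. All peaks within 1 kb of any annotated transcription start site (TSS) of these genes, or within their gene bodies, were collected from the deposited peak lists. This gave 127 peaks over 6 libraries, of which 75 reached a promoter window and 52 lay in a gene body alone.

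Heme is built in a fixed order of steps that start and end in the mitochondrion. ALAS condenses glycine with succinyl-CoA and sets the rate, through a ubiquitous form (*Alas1*) and an X-linked form of red cell precursors (*Alas2*). *Alad*, *Uros* and *Urod* act in the cytosol, *Cpox* and *Ppox* encode oxidases that act at the mitochondrion, and ferrochelatase (*Fech*) inserts the iron. In erythroid cells GATA1 binds in promoters and introns of several of these genes, and *Alad* and *Uros* are known to have separate housekeeping and erythroid promoters. Acetylation of histone H3 at lysine 9 marks active promoters and enhancers.

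The libraries came from C57BL/6 mice that all carried the *NUP98-HOXD13* transgene, a model of myelodysplastic syndrome that can progress to acute myeloid leukaemia. The mice differed in *GFI1*, a transcriptional repressor: *GFI1-36S* is the common human form placed in the murine locus, *GFI1-36N* is a human variant form in the same place, and *GFI1-KD* mice express less GFI1. Each genotype had 1 vehicle library, labelled as without curcumin, and 1 curcumin library, from mice given 20 mg/kg curcumin weekly into the peritoneum. The comparison asks how H3K9ac at each enzyme gene differs between vehicle and curcumin in each genotype.

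The sample titles and the study's methods name BM cells, while the heading of its ChIP-seq figure names c-kit+ cells. The libraries were taken here as whole BM, which mixes erythroid, myeloid, lymphoid and progenitor cells. Fewer cells of a type therefore cannot be told apart from less mark per cell. The labels give neither age nor sex, nor how many mice contributed to a library. With 1 library per group there was no replicate error and no test between groups could be made. The intervals given below are exact 95% Poisson intervals of fragment counts, or exact binomial intervals of a ratio of counts. They cover counting error only, and they do not cover the spread between mice. PCR copies of fragments cannot be told from separate molecules, so the intervals may be too narrow even for counting error.

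The lists held 20354 to 49213 peaks, and 9932 to 12123 coding genes had a promoter peak. The *GFI1-36S* curcumin library had the fewest of both. It also stood apart in its markers, since 10 of 11 T cell marker promoters had a peak there against 4 to 6 in the other libraries, while 1 of 12 neutrophil markers had one against 7 to 11. In addition, each deposited *GFI1-36S* list is named for the other treatment than its sample title gives. The titles were followed here, and every direction given for *GFI1-36S* turns round if the list names are right. The list names of *GFI1-36N* also mark the vehicle sample as carrying 1 knock-in allele and the curcumin sample as carrying 2, so zygosity and treatment cannot be told apart in that pair.

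Sequences around the erythroid promoters are shown because peaks in or beside them were called in some libraries and not in others. They were read from RefSeq and the mm10 genome (GRCm38.p6) in the direction of transcription, and capitals mark matches to the letters AGATAA and AGATAG as well as TGATAA and TGATAG on either strand, the GATA motif. At least 1 such match occurs in 26.5% of 32841 RefSeq promoters of 250 bases, and 2 or more separate matches occur in 6.22%. The stretches are the *Alas2* promoter (chrX:150547167-150547374, + strand) and 200 bases of *Alas2* intron 1 around the summit of its strongest peak (chrX:150548108-150548307, + strand). The last stretch is a site of 30 bases in the first intron of the main *Uros* transcript (chr7:133702551-133702580, − strand). Its match lies 68 bases before the RefSeq start. The annotation used for the peaks has coding starts at chr7:133702538 and chr7:133702616. The site lies before the former start but after the latter, within the region transcribed from it.
Alas2 promoter: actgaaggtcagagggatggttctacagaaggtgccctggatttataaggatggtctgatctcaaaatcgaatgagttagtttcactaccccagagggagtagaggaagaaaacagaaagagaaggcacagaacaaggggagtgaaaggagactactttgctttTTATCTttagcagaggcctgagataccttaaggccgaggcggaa
Alas2 intron 1: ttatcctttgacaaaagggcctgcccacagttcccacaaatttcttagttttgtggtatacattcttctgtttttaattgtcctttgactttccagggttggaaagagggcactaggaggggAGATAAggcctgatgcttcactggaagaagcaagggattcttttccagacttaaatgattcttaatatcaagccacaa
Uros intron site: tctccctcagccTTATCAgtgacagagggc

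The *Cpox* promoter (chr16:58669958-58670207, + strand) and the outer *Alad* promoter (chr4:62520064-62520313, − strand) are shown as a contrast, since the first carried no peak in any library and the second lay under the summits of a peak in all of them. In *Cpox* the first run of capitals holds 2 GATA matches that share a base and were counted as 1. The second run is the NRF1 core, CGCNTGCG on either strand, which occurs in 6.76% of the same promoters. The *Alad* stretch holds neither, and the summits lay in the part (chr4:62520064-62520159) that it shares with the window of the inner *Alad* start.
Cpox promoter: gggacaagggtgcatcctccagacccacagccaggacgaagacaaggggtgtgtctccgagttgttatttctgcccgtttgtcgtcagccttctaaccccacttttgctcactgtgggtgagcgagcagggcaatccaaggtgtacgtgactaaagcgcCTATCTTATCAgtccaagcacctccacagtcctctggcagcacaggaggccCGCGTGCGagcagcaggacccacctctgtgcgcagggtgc
Alad outer promoter: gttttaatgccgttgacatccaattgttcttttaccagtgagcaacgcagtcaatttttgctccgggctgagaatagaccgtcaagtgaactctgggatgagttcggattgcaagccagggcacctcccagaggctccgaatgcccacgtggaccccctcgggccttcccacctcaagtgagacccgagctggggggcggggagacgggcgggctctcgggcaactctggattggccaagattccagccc

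The *Alas2* promoter and the intronic *Uros* promoter were the poorest in CpG of the 10 windows examined, which left out *Fech*. The observed over expected CpG ratio of the 250 bases before the RefSeq start was 0.297 in *Alas2* and 0.349 in the intronic *Uros* promoter, against a median of 0.374 over all promoters. It was 1.21 at the inner *Alas1* start and 1.17 at the housekeeping *Uros* start. The inner and outer *Alad* windows had ratios of 0.811 and 0.610. A GATA match was found in the promoters of *Alas2*, intronic *Uros* and *Cpox*, and in none of the other 7 promoter windows examined. Over all promoters 26.5% had a match, so a match does not set these genes apart. The intronic *Uros* window held 2 separate matches, of which the one nearer the start is printed above, and 6.22% of all promoters held 2 or more. A match describes the letters of a window and is not evidence of binding.

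The enzyme genes fell into 2 sets by their promoters. *Alas1*, *Alad*, *Uros*, *Urod*, *Ppox* and *Fech* carried a peak at a promoter in each of the 6 libraries, as did 43.4% of all coding genes. Without the *GFI1-36S* pair the same 6 enzymes had a peak in all 4 remaining libraries, against 49.8% of coding genes. *Alas2* and *Cpox* did not. *Alas2* had promoter peaks in the 3 vehicle libraries and in no curcumin library, a pattern shared by 0.171% of the 12903 genes with a promoter peak anywhere. Without the *GFI1-36S* pair the corresponding share of genes, with a peak in both vehicle libraries and in neither curcumin library, was 0.55%. *Cpox* had a weak peak within 1 kb of a noncoding start in the vehicle libraries of *GFI1-36S* and *GFI1-36N*.

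Levels were compared as ranks, because the deposited fold enrichment is not normalized between libraries. The rank is the percentile, from 0 to 100, of a gene's strongest promoter peak by fold enrichment among the coding genes with a promoter peak in that library, and a gene without one has rank 0. A change of at least 10 rank points was counted as lower or higher. *Alas1* and *Ppox* ranked highest in the vehicle libraries, *Uros* and *Fech* followed, *Urod* and *Alad* lay near the middle, and *Alas2* and *Cpox* were at the bottom. The 8 enzymes had a median rank of 58.9 in *GFI1-36S* vehicle and 40.8 in *GFI1-36S* curcumin. For *GFI1-36N* these medians were 50.3 and 59.4, and for *GFI1-KD* 57.1 and 56.7.

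**Figure D1:**
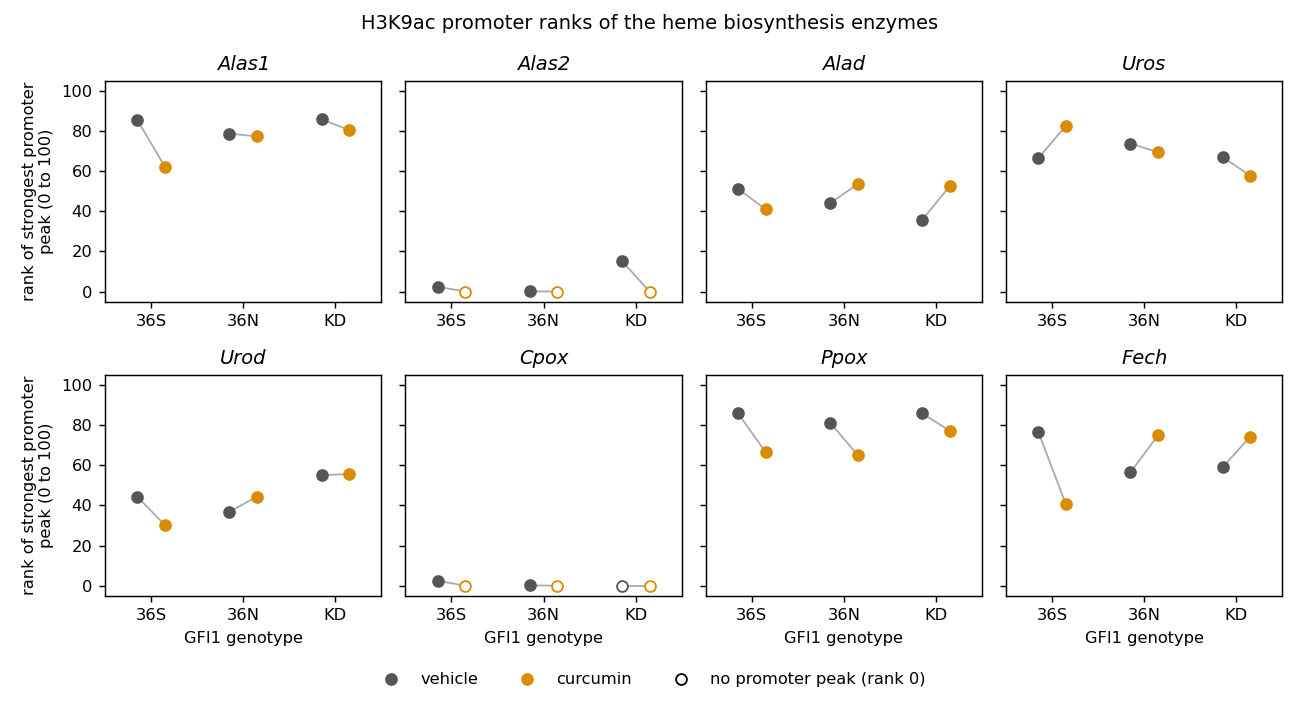
Promoter rank (percentile of the strongest promoter peak by fold enrichment, 0 to 100, with 0 for no peak) of each of the 8 enzymes in the 6 libraries, with vehicle (grey) and curcumin (orange) of 1 genotype joined by a line and open circles where no promoter peak was called. *Fech* falls from 76.8 to 40.5 in *GFI1-36S* and rises from 56.5 to 75.0 in *GFI1-36N*, while *Alas2* sits at 0 in each curcumin library.

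In *GFI1-36S*, 5 of 8 enzymes ranked lower with curcumin by at least 10 points (*Alas1*, *Alad*, *Urod*, *Ppox* and *Fech*), against 41.6% of the 11894 genes compared. *Uros* alone ranked higher by that much, against 14.7% of genes. *Alas2* and *Cpox* had a promoter peak with vehicle alone, as did 16.5% of genes. The median change was −12.2 rank points for the enzymes and −6.73 for all genes, so the enzymes moved in the direction in which most genes of this pair moved.

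In *GFI1-36N*, the enzymes showed few changes of that size. *Ppox* ranked lower (1 of 8, against 11% of 12350 genes) and *Fech* ranked higher (1 of 8, against 19.5%). *Alas2* and *Cpox* again had a promoter peak with vehicle alone, against 1.84% of genes, but both vehicle peaks were among the weakest of the list. The median change was −0.114 for the enzymes and 1.98 for all genes. Only peaks with a −log10 q of at least 5 leave neither vehicle peak, and the median of the other 6 enzymes is then 2.68.

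In *GFI1-KD*, *Alas2* ranked lower (1 of the 7 enzymes compared, against 20.7% of 12188 genes), and *Alad* and *Fech* ranked higher (2 of 7, against 9.38%). *Alas2* was also the 1 enzyme with a promoter peak in vehicle alone, as were 6.79% of genes. *Cpox* had no promoter peak in either library and was not compared. The median change was −5.33 for the enzymes and −2.37 for all genes.

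The rate-setting ubiquitous enzyme *Alas1* (ENSMUSG00000032786.16, chr9:106233455-106248654, − strand) had 1 broad peak over its main start in every library. The fold enrichment with vehicle and curcumin was 30.1 and 14.4 in *GFI1-36S*, 24.4 and 28.6 in *GFI1-36N*, followed by 33.8 and 27.7 in *GFI1-KD*. The *GFI1-36S* curcumin value, from 80 fragments at the summit against 178, was the lowest of the 6, and the peak was 984 bp wide there against 2354 to 2541 bp elsewhere. In rank this was a fall of 23.4 points in *GFI1-36S*, and changes of −1.40 and −5.33 in *GFI1-36N* and *GFI1-KD*. The antisense gene 4930500F10Rik starts 104 bp from an *Alas1* start, so the peak cannot be given to one gene.

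*Alas1* also had a second element 4512 bp downstream of its main start, at a noncoding transcript that starts within the gene (Alas1-206). It was called in 5 libraries with a fold enrichment of 5.63 to 7.94, and not in *GFI1-36S* curcumin. A weaker element in intron 2 was called in *GFI1-36S* vehicle (3.14), *GFI1-36N* curcumin (4.67) and *GFI1-KD* vehicle (6.02), so its presence did not follow treatment across genotypes.

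The erythroid form *Alas2* (ENSMUSG00000025270.13, chrX:150547375-150570638, + strand) carried all of its signal around the promoter and in intron 1. In *GFI1-KD* vehicle there were 5 peaks. The strongest lay 832 bp downstream of the start, over the intron 1 stretch printed above, with a fold enrichment of 7.81 (56 fragments, 42.3 to 72.7) and a width of 2161 bp. Another lay 282 bp upstream of the start (4.53), and 3 lay farther into intron 1 at 2876 bp (5.63), 3942 bp (3.44) and 4341 bp (3.71).

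The other vehicle libraries had weaker *Alas2* peaks at overlapping places. *GFI1-36S* vehicle had peaks at 390 bp (3.55, 20 fragments, 12.2 to 30.9), 1440 bp (3.21) and 2906 bp (2.87). *GFI1-36N* vehicle had a single peak of 402 bp at 700 bp, with a fold enrichment of 2.64 and 21 fragments (13 to 32.1). The 3 curcumin libraries had no peak anywhere in *Alas2*, and its ranks were 2.42, 0.125 and 15.3 with vehicle against 0 with curcumin in *GFI1-36S*, *GFI1-36N* and *GFI1-KD*.

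No peak means that none passed the peak caller's threshold, not that acetylation was absent. To see how far a peak of the vehicle height could have been found, the height over the genome background of the library was set against the curcumin list of the same genotype. The *Alas2* height was 4.14 in *GFI1-36S* vehicle, 3.55 in *GFI1-36N* vehicle and 9.13 in *GFI1-KD* vehicle. In the matching curcumin lists, 10.2%, 8.78% and 58.5% of peaks were at or under that height, so the *GFI1-KD* vehicle peak was of a height well within reach of the curcumin list and the other 2 were near its lower end. With only peaks of a −log10 q of at least 5, or with equal numbers of peaks per list, *GFI1-KD* vehicle was the one library that kept an *Alas2* promoter peak.

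Erythroid marker promoters varied in the same libraries. A peak was present at 13, 1, 9, 8, 13 and 4 of 13 markers in *GFI1-36S* vehicle and curcumin, *GFI1-36N* vehicle and curcumin, and *GFI1-KD* vehicle and curcumin. Their median ranks in that order were 14, 0, 4.44, 3.90, 18.6 and 0. Neutrophil markers had peaks at 11, 1, 11, 11, 11 and 7 of 12 promoters in the same order. Of all 21938 coding genes, 11652, 9932, 11618, 12123, 12036 and 11360 had a promoter peak in that order. The part of the mix of cells in the *Alas2* result was not tested.

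The genes whose 6 ranks lay nearest to those of *Alas2*, by Euclidean distance in rank points over the 6 libraries, were *Hba-a2* (1.66), *Schip1* (2.16) and *Ankrd22* (2.19). *Hba-a2* encodes alpha globin and has a near-identical copy beside it, so its peaks are uncertain. Its ranks were 4.06 in *GFI1-36S* vehicle, 15.0 in *GFI1-KD* vehicle and 0 in the other 4 libraries.

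*Alad* (ENSMUSG00000028393.10, chr4:62509169-62519918, − strand) joins 2 ALA molecules into porphobilinogen. Its promoter peak had a summit 152 to 227 bp upstream of the annotated start in all 6 libraries, over the outer promoter. The fold enrichment with vehicle and curcumin was 20.3 and 11.1 in *GFI1-36S*, 16 and 22.0 in *GFI1-36N*, followed by 16.6 and 19.8 in *GFI1-KD*. The rank fell by 10.3 points in *GFI1-36S*, rose by 9.51 in *GFI1-36N* and rose by 16.9 in *GFI1-KD*.

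In *GFI1-KD* the *Alad* peak ranked higher and was narrower with curcumin. The ratio of its heights over background, curcumin to vehicle, was 1.22 (0.954 to 1.56), an interval that held 1. In vehicle 1 peak of 5651 bp ran from the promoter into the gene, and in curcumin the promoter peak was 1258 bp wide. The ratio of widths was 0.223, and 1.5% of genes with a promoter peak in both libraries had a lower one. Peaks covered 46.7% of the *Alad* gene body in *GFI1-KD* vehicle and 13.2% in curcumin, 43.1% and 26.1% in *GFI1-36S*, and 30.6% and 26.6% in *GFI1-36N*. A separate intron 1 peak was called in *GFI1-36S* vehicle with a fold enrichment of 9.76 from 57 fragments and in *GFI1-36S* curcumin with 3.56 from 19 fragments. The ratio of their heights over background was 0.350 (0.197 to 0.597), an interval that held the median ratio of promoter peaks in this pair, 0.585. In *GFI1-36N* vehicle this region held a peak of 3.17 (21 fragments) and another of 4.75 (32 fragments). The *GFI1-36N* curcumin peak (2.60, 14 fragments) overlapped the former and not the latter. Its height over background was 2.93, against 3.55 and 5.41 for these vehicle peaks. *GFI1-KD* curcumin also had a peak in this region (3.33). Another intron 1 peak, nearer the start, was called in the 3 curcumin libraries (3.96, 5.19 and 4.28), and the vehicle promoter peak of the same genotype overlapped it. In *GFI1-36N* the overlap was partial, since the vehicle peak ended at chr4:62517595, short of the curcumin summit at chr4:62517259.

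*Uros* (ENSMUSG00000030979.13, chr7:133686243-133710072, − strand) closes the tetrapyrrole ring and has a second promoter whose peak was present in some libraries and not in others. Its housekeeping promoter, shared with *Bccip* whose start lies 52 bp away, had a peak of 1503 to 2304 bp in every library. The fold enrichment there with vehicle and curcumin was 24.2 and 18.7 in *GFI1-36S*, 23.0 and 26.1 in *GFI1-36N*, followed by 27.1 and 21.0 in *GFI1-KD*. In *GFI1-36S* the height ratio of this peak was 0.763, 82.4% of genes had a lower one, and the rank rose from 66.5 to 82.7.

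The second *Uros* promoter lies in intron 1 and starts 2 coding transcripts (Uros-209 and Uros-210). A peak covered both starts in *GFI1-KD* vehicle (fold enrichment 10.7, 77 fragments, 60.8 to 96.2, width 3389 bp) and in *GFI1-36S* vehicle (9.25, 54 fragments, 40.6 to 70.5, width 2146 bp). In *GFI1-36N* curcumin a weaker peak (4.18, 27 fragments, width 1516 bp) also covered both starts. *GFI1-36N* vehicle had 2 peaks in the window that covered neither start, one with a summit 117 bp from the nearest start (3.60, 24 fragments) and one with a summit 1095 bp from it (4.65, 33 fragments). None was called in *GFI1-36S* curcumin or *GFI1-KD* curcumin, although the housekeeping promoter had a peak in both. Set against the stronger of these vehicle peaks, the curcumin peak had a height ratio of 1.01 (0.586 to 1.74). The intronic *Uros* peak and the *Alas2* peaks were both strongest in *GFI1-KD* vehicle and both absent from *GFI1-36S* and *GFI1-KD* curcumin, but *GFI1-36N* curcumin kept the former and not the latter. A further element in *Uros* intron 5 was called in *GFI1-36S* vehicle (5.06), *GFI1-36N* curcumin (4.15) and *GFI1-KD* vehicle (5.08).

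**Figure D2:**
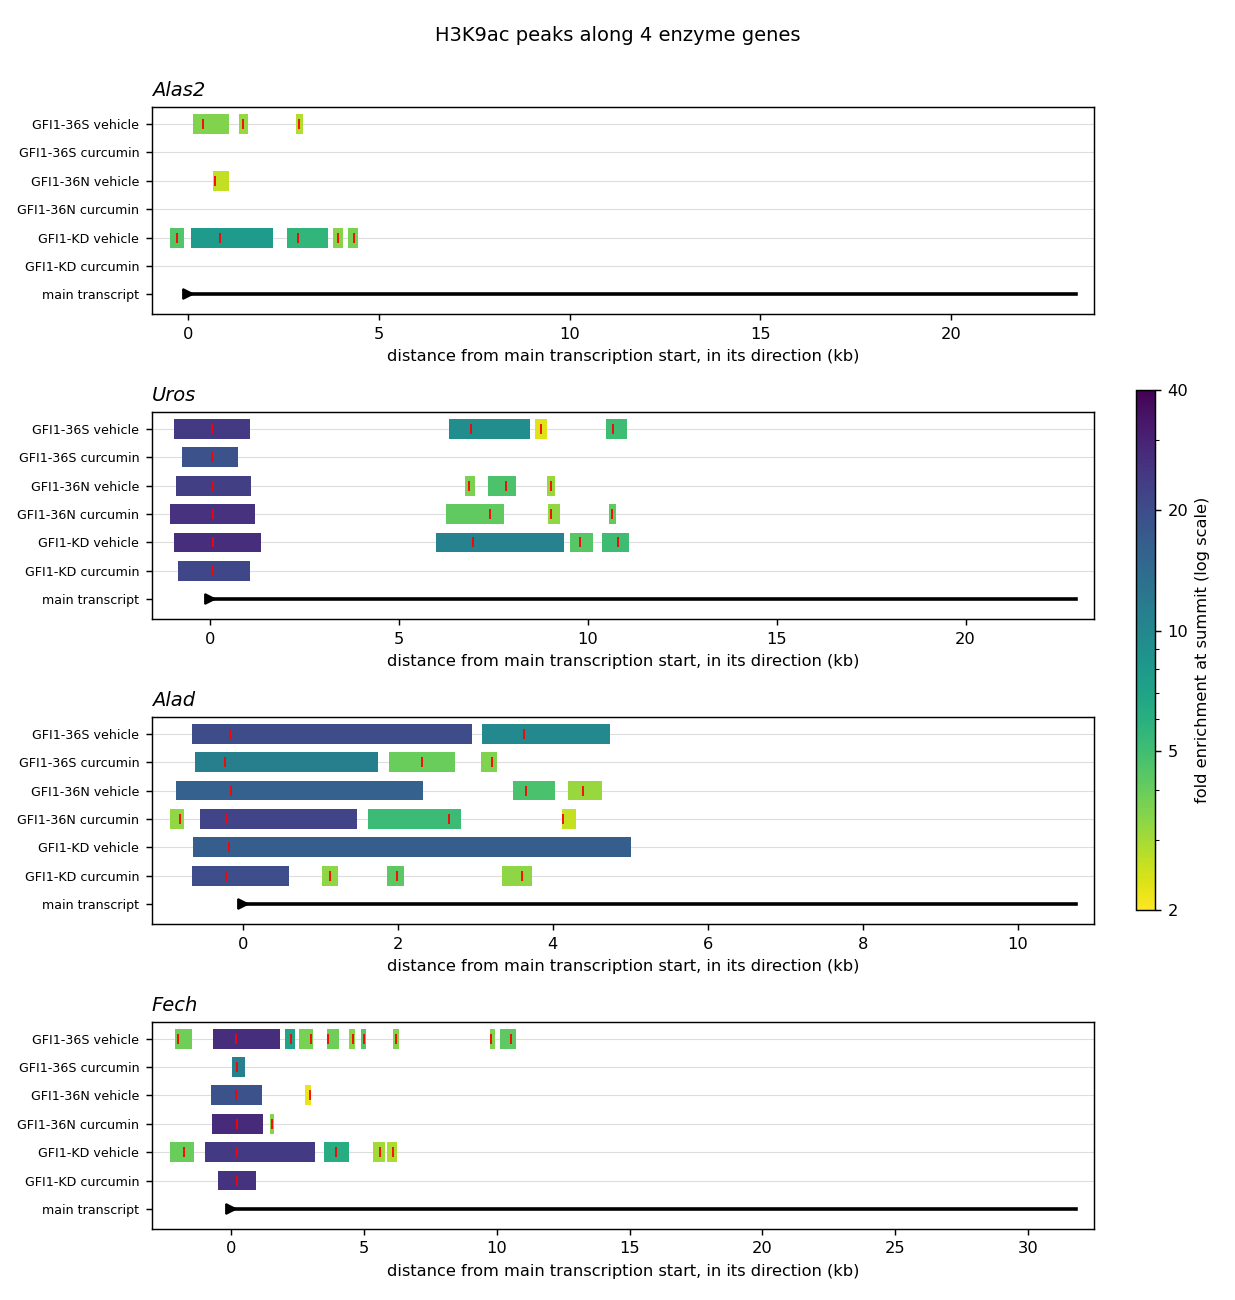
Peaks along *Alas2*, *Uros*, *Alad* and *Fech* in the 6 libraries, drawn to scale against the distance from the main start in kb, with the fold enrichment of each peak shown by its colour (log scale), red ticks at the summits and the main transcript drawn as a line from its start. *Alas2* has peaks in vehicle libraries alone, and the intronic *Uros* peak is missing from *GFI1-36S* curcumin and *GFI1-KD* curcumin.

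*Urod* (ENSMUSG00000028684.14, chr4:116989965-116994413, − strand), which decarboxylates uroporphyrinogen, is a short gene whose start lies 904 bp from that of *Hectd3*. Its strongest promoter peak had a summit nearest the *Hectd3* start in every library, with a fold enrichment with vehicle and curcumin of 18.5 and 9.44 in *GFI1-36S*, 14.2 and 19.4 in *GFI1-36N*, followed by 23.1 and 20.5 in *GFI1-KD*. The peak nearest its own start, in intron 1, had a fold enrichment of 16.1 and 6.59, 12.2 and 14, and 16.7 and 10.8 in the same order. The height ratio of this own peak was 0.398 (0.263 to 0.590) in *GFI1-36S*, 1.18 (0.857 to 1.62) in *GFI1-36N* and 0.656 (0.476 to 0.895) in *GFI1-KD*. The choice of peak changed a call, since the *Urod* rank moved by 0.487 in *GFI1-KD* with the strongest peak and by −15.1 with the peak whose summit was nearest a *Urod* start.

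*Cpox* (ENSMUSG00000022742.6, chr16:58670292-58717636, + strand) encodes coproporphyrinogen oxidase. No library had a peak within 1 kb of its main start, the promoter printed above with a GATA pair and an NRF1 core. The promoter peaks it did have were weak and lay near noncoding starts, with a fold enrichment of 3.55 (20 fragments) near Cpox-202 in *GFI1-36S* vehicle and 2.61 (19 fragments) near Cpox-203 in *GFI1-36N* vehicle. With starts of coding transcripts only, or with a −log10 q of at least 5, *Cpox* had no promoter peak in any library.

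Stronger *Cpox* peaks lay past the end of its coding transcript, inside the annotated gene because Cpox-203 extends it. The element with a median summit 15594 bp downstream of the main start had a fold enrichment of 8.42 in *GFI1-36S* vehicle, 9.06 and 10.9 in *GFI1-36N* vehicle and curcumin, then 6.04 and 10.3 in *GFI1-KD* vehicle and curcumin. In *GFI1-KD* its height ratio was 1.76 (1.17 to 2.66), and it was 1.24 (0.857 to 1.79) in *GFI1-36N*. Elements at 20191 bp (3.74 to 6.90) and 42239 bp (4.89 to 7.79) were called in the same 5 libraries. *GFI1-36S* curcumin had no peak in *Cpox* at all.

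*Ppox* (ENSMUSG00000062729.11, chr1:171275990-171281186, − strand), which makes protoporphyrin, had one of the strongest promoters of the pathway. The summit lay 402 to 500 bp upstream of the main start, between *Ppox* and its neighbour *Usp21*. The fold enrichment with vehicle and curcumin was 30.2 and 15.3 in *GFI1-36S*, 25.3 and 24.9 in *GFI1-36N*, followed by 33.8 and 26.6 in *GFI1-KD*. The rank changed by −19.3, −16.1 and −8.68 points in that order. The first 2 of these changes reached 10 points, and the one in *GFI1-KD* did not. The main peak was 2076 bp wide in *GFI1-36S* vehicle, and in *GFI1-36S* curcumin the region was split into peaks of 626 and 1053 bp.

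**Figure D3:**
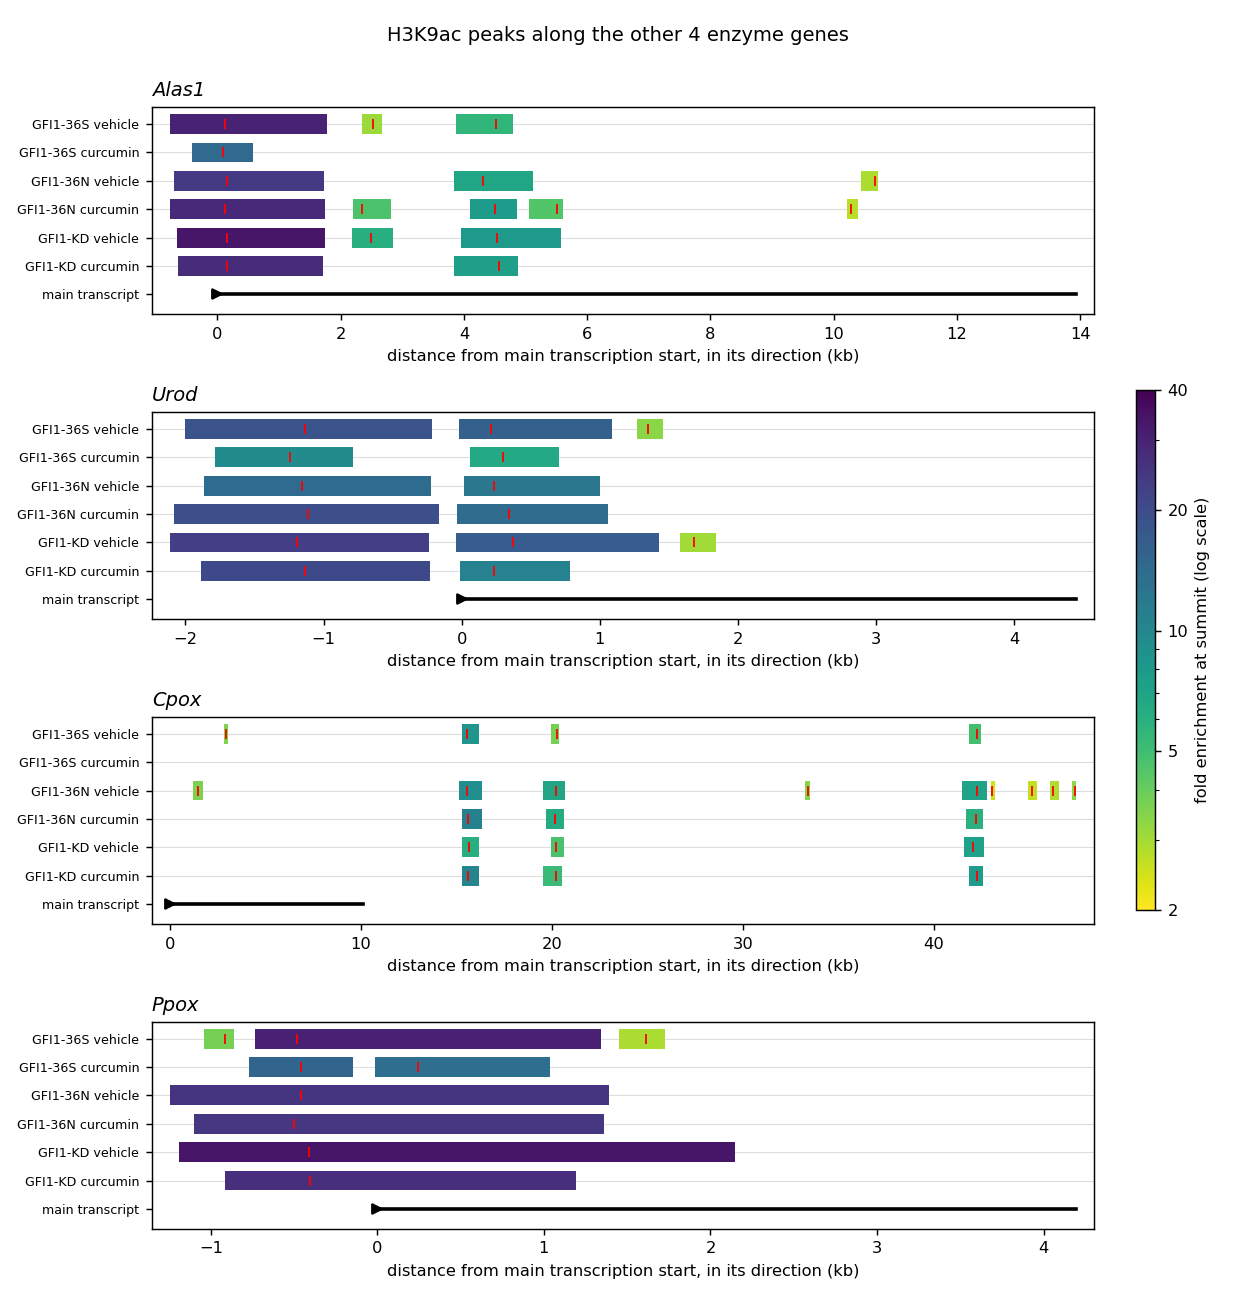
Peaks along *Alas1*, *Urod*, *Cpox* and *Ppox* in the 6 libraries, drawn to scale against the distance from the main start in kb, with the fold enrichment of each peak shown by its colour (log scale), red ticks at the summits and the main transcript drawn as a line from its start. *Cpox* has no peak at its main start in any library and 3 recurrent elements 15594, 20191 and 42239 bp downstream.

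*Fech* (ENSMUSG00000024588.9, chr18:64452914-64490251, − strand), the last enzyme, had the widest range of rank changes between the genotypes. The fold enrichment at its promoter with vehicle and curcumin was 27.0 and 11.0 in *GFI1-36S*, 18.8 and 27.9 in *GFI1-36N*, followed by 24.3 and 25.7 in *GFI1-KD*. In fragments at the summit these were 160 (136 to 187) and 61 (46.7 to 78.4), 130 (109 to 154) and 160 (136 to 187), and 177 (152 to 205) and 154 (131 to 180). *GFI1-36S* curcumin was the lowest of the 6 and its interval overlapped none of the others.

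In rank *Fech* fell by 36.2 points in *GFI1-36S*, and it rose by 18.5 in *GFI1-36N* and by 15.3 in *GFI1-KD*. The height ratio was 0.400 (0.293 to 0.541), 1.52 (1.2 to 1.94) and 1.08 (0.863 to 1.35) in that order. The promoter peak narrowed from 2531 to 493 bp in *GFI1-36S* and from 4167 to 1439 bp in *GFI1-KD*, and it was 1921 and 1917 bp wide in *GFI1-36N*. As at *Alad*, the *GFI1-KD* peak thus ranked higher and was narrower with curcumin. Counting the promoter peak, *Fech* had 10 peaks in *GFI1-36S* vehicle and 5 in *GFI1-KD* vehicle, most of them in intron 1. The strongest beside the promoter peak lay 2254 bp (fold enrichment 7.07) and 3930 bp (6.17) downstream of the start. The *GFI1-36N* libraries had 2 *Fech* peaks each, and the *GFI1-36S* and *GFI1-KD* curcumin libraries had 1 each. The nearest rank patterns to *Fech* were those of *Gtpbp8* (distance 11.2), and of *Gtf3c1* and D430042O09Rik (11.7 each, with equal ranks).

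Height ratios place these changes against those of all promoters. For the 6 enzymes with peaks in both libraries the median curcumin to vehicle ratio was 0.498 in *GFI1-36S*, 1.30 in *GFI1-36N* and 0.876 in *GFI1-KD*. For all genes it was 0.585, 1.24 and 0.886. The *Urod* ratios used here (0.501, 1.40 and 0.907) came from its strongest peak, whose summit was nearest *Hectd3*. Its own peak gave 0.398, 1.18 and 0.656. Divided by the median of all genes, 15 of the 18 enzyme ratios had a counting interval that held 1. The share of all genes with such an interval was not computed, so this count has no background beside it. The interval of *Fech* in *GFI1-36S* lay below 1 (0.684, 0.501 to 0.924), and 11% of genes had a lower ratio. Those of *Uros* in *GFI1-36S* (1.31, 1.004 to 1.69) and *Alad* in *GFI1-KD* (1.38, 1.08 to 1.76) lay above 1. Lower ratios than these were found for 82.4% and 93.9% of genes. For *Fech* in *GFI1-36N* and *GFI1-KD*, where it ranked higher, the intervals held 1 (0.966 to 1.56 and 0.974 to 1.52). Of all genes, 84.8% and 86.2% had a lower ratio, and the part of counting error in these ranks was not tested.

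**Figure D4:**
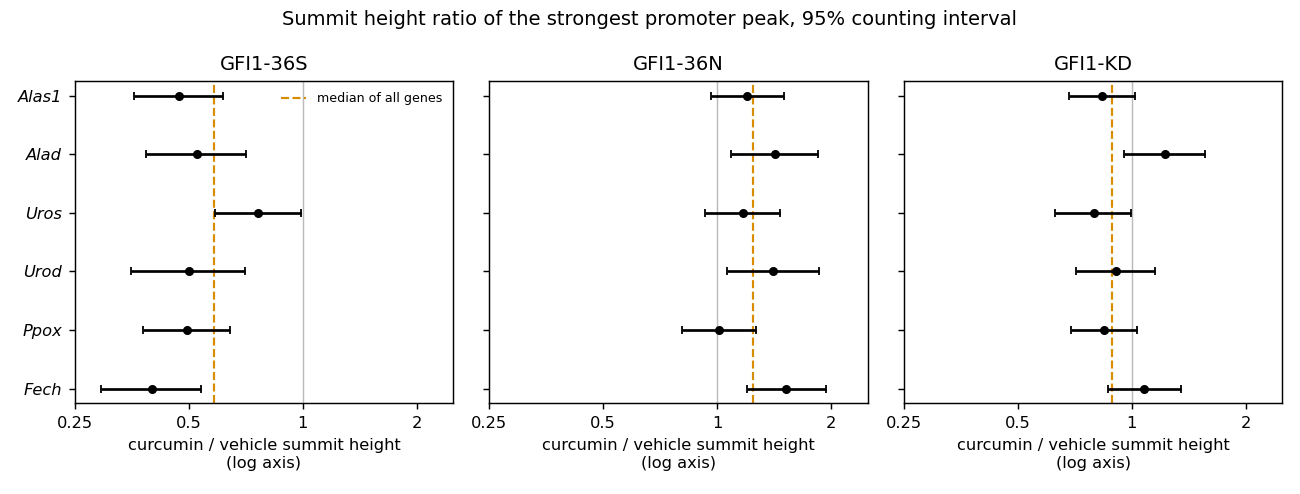
Ratio of the height of the promoter peak with curcumin to that with vehicle (log axis) for the 6 enzymes with a peak in both libraries of a genotype, with exact 95% binomial intervals of the fragment counts and the median of all genes marked for each genotype. Most intervals hold the median of all genes, which was 0.585 in *GFI1-36S*, 1.24 in *GFI1-36N* and 0.886 in *GFI1-KD*. For *Urod* the peak shown is its strongest, whose summit was nearest the *Hectd3* start.

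Most enzyme peaks narrowed where most peaks of the library did. All 6 enzymes had a narrower promoter peak with curcumin in *GFI1-36S* and in *GFI1-KD*, where 94.4% and 87.9% of genes did, and 3 of 6 were narrower in *GFI1-36N*, where 38.9% of genes were. The median width over all genes went from 1784 to 1059 bp in *GFI1-36S*, from 1715 to 1760 bp in *GFI1-36N* and from 1945 to 1534 bp in *GFI1-KD*. *Fech* and *Alad* each lay near the narrow end of these changes in 2 of the 3 genotypes. The share of genes with a lower width ratio than *Fech* was 3.35% in *GFI1-36S*, 38.4% in *GFI1-36N* and 4.57% in *GFI1-KD*. For *Alad* it was 58.3%, 5.74% and 1.5% in the same order.

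Peaks inside the enzyme genes and away from any promoter numbered 14 and 2 in *GFI1-36S* vehicle and curcumin, 12 and 8 in *GFI1-36N*, then 11 and 5 in *GFI1-KD*. In *GFI1-36N* the lower count with curcumin came from *Cpox*, with 8 and 3 such peaks, and the difference was gone with a −log10 q of at least 5 (5 and 5) and with equal numbers of peaks per list (4 and 4). Promoter peaks numbered 18 and 8, 13 and 13, and 14 and 9 in the same order. These counts moved with the number of peaks called in a library in *GFI1-36S* and *GFI1-KD*, but in *GFI1-36N* the curcumin list was the longer (49213 peaks against 39564).

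**Figure D5:**
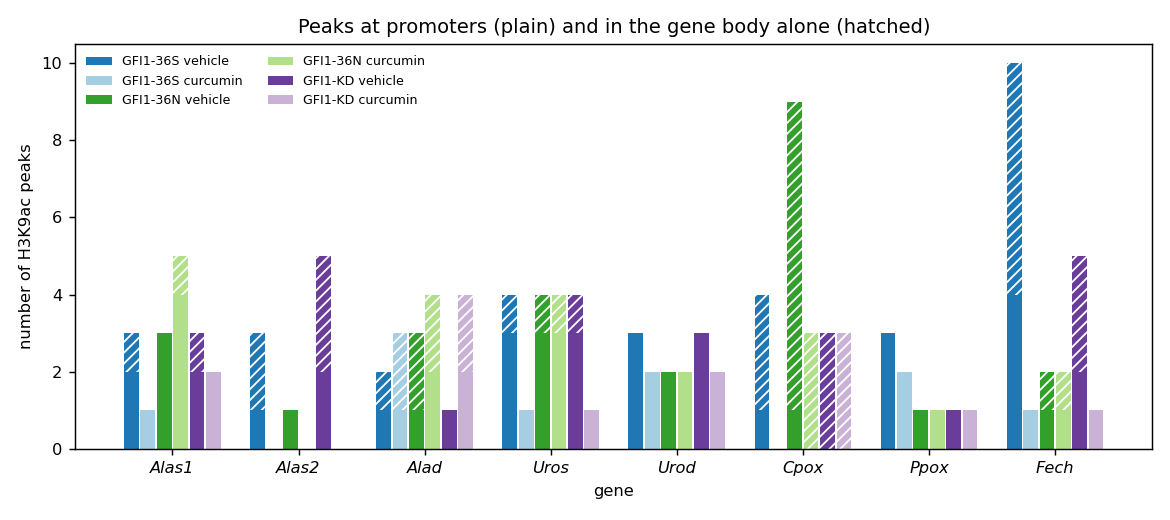
Number of peaks at the 8 enzyme genes in each of the 6 libraries, as bars split into promoter peaks and peaks in the gene body alone. Vehicle libraries hold 25 to 32 peaks in all and curcumin libraries 10 to 21.

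The wider heme pathway was described from a list of 27 genes for mitochondrial carriers and iron-sulphur cluster partners, heme export and breakdown, and regulators. A promoter peak was present at 24 and 22 of them in *GFI1-36S* vehicle and curcumin, 23 and 23 in *GFI1-36N*, followed by 25 and 24 in *GFI1-KD*. Their median rank changes were −6.83, 2.15 and −2.30, beside −6.73, 1.98 and −2.37 for all genes. Lower ranks by at least 10 points were seen for 11 of 24, 1 of 23 and 7 of 25 genes, and higher ranks for 2, 2 and 1. The shares over all genes were 41.6%, 11% and 20.7% for lower ranks and 14.7%, 19.5% and 9.38% for higher ranks. No gene of the list moved by that much in the same direction in all 3 genotypes. *Hmox1*, which breaks heme down, ranked 30.5 and 30.2 in *GFI1-36S*, 29.2 and 32.3 in *GFI1-36N*, followed by 32.3 and 38.4 in *GFI1-KD* vehicle and curcumin. *Slc25a37*, the mitochondrial iron carrier mitoferrin of red cell precursors, and *Clpx*, which activates ALAS2, had no promoter peak in any library and are named after their values were seen.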

How the data were processed

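H3K9ac ChIP-seq (antibody ab4441) of BM cells was taken from 6 libraries, 1 per genotype and treatment. An input and a rabbit IgG sample were not used here. Per the labels and the study's methods, the authors trimmed reads with Trim Galore, mapped them to mm10 with BWA and called peaks in each library with MACS2. SAMtools, Picard and deepTools are also listed in the submitters' processing notes. Versions and the control of each list are not given in the sources used here. The deposited fold enrichment is a ratio, the summit pileup over the background of its neighbourhood, and the deposited −log10 p and −log10 q were written by the authors' peak caller. None is normalized between libraries. Every deposited peak had a −log10 q of at least 1.31.

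Starts came from GENCODE M21 on mm10, with any transcript type, a window of 1 kb on each side and an overlap of at least 1 bp. Fragment numbers at the summits were worked out from fold enrichment and p, to within 0.002 of the −log10 p, for 98.8 to 100% of peaks and for all 127 enzyme peaks. Lists held peaks of 13 to 17 fragments at the least and 24 to 36 at the median. The height over background is the fragment count over the genome background of the library. Python 3.11.15, numpy 2.4.6, scipy 1.17.1, pandas 2.3.3 and matplotlib 3.10.9 were used, and the ranking and counting were tested on simulated data.

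All 8 enzymes were named, with Hmox1 and any gene of the 27 that moved by at least 10 rank points in the same direction in all genotypes, and the 3 genes nearest in rank pattern to Alas2 and Fech. The enzymes, lists and rules were chosen with earlier results of these data known. Alternatives tried were peaks at or above a −log10 q of 5, equal numbers of peaks, a 3 kb window, the summit in the window, ranking by −log10 p or by height, genes of all biotypes, enzymes with peaks in both libraries, and exchanged GFI1-36S treatments. Coding starts only, the summit nearest an own start, the settings of the gene-body counts, and leaving out the GFI1-36S pair were added after seeing the data. No test was made, since each group had 1 library. One sequence is not reported here.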

Additional observations from a re-analysis of the deposited data

Results flagged for a closer look

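*Alad* and *Fech* moved in opposite directions between genotypes, which is what singled them out. The *Alad* promoter changed by −10.3 rank points with curcumin in *GFI1-36S* and by 16.9 in *GFI1-KD*. The *Fech* promoter changed by −36.2 in *GFI1-36S*, by 18.5 in *GFI1-36N* and by 15.3 in *GFI1-KD*. With 1 library per group, the difference between genotypes was not tested. Set over the median of all genes, the height ratios of *Alad* in *GFI1-36S* (0.897, 0.659 to 1.21) and of *Fech* in *GFI1-36N* (1.23, 0.966 to 1.56) and *GFI1-KD* (1.22, 0.974 to 1.52) had counting intervals that held 1. The *GFI1-36S* values turn positive if the treatments in the list names are the right ones, with changes of 10.3 for *Alad* and 36.2 for *Fech*. The same *GFI1-36S* curcumin library had the fewest peaks and the most T cell marker promoters with a peak, and the part of these in the result was not tested.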

How the results depend on the processing

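Of 83 alternative values of the summary results, 71 moved by less than 10 rank points or, for counts, by no more than 1.5 times, and of 224 alternative rank changes of single enzymes 216 did. Smaller changes could still turn in sign. Every reversal of a change of at least 10 points came from exchanging the *GFI1-36S* treatments, by construction. The *GFI1-36S* median was then 12.2, and the changes were 23.4 for *Alas1*, 10.3 for *Alad*, −16.3 for *Uros*, 14.2 for *Urod*, 19.3 for *Ppox* and 36.2 for *Fech*, with 2 gene-body peaks for vehicle and 14 for curcumin. Gene-body counts were the least stable, because weak peaks are left out. With a −log10 q of at least 5 they were 7 and 1 in *GFI1-36S* vehicle and curcumin, and 5 and 5 in *GFI1-36N*. With equal numbers of peaks per list they were 4 in *GFI1-36S* vehicle, 4 and 4 in *GFI1-36N*, then 6 and 3 in *GFI1-KD* vehicle and curcumin. The *GFI1-36N* median, near 0, turned from −0.114 to 2.68 and 2.28 under these 2 settings. *Urod* in *GFI1-36N* turned from 7.65 to −1.07 with the summit inside the window. No paired analysis was possible because each group had 1 library. Peaks near the lowest fragment counts limit statements on *Alas2* and *Cpox* in *GFI1-36S* and *GFI1-36N*.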
